A study of Mus musculus with 15 samples.

Results

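The comparison described here set 36S leukemia cells exposed to temozolomide (TMZ) against untreated 36S leukemia cells, and it used 6 of the 15 libraries of the series. The series measured gene expression by RNA sequencing of poly(A)-selected RNA from the total bone marrow of C57BL/6 mice with acute leukemia. Lineage-depleted bone marrow cells had been infected with a retrovirus that carries green fluorescent protein and MLL-AF9, an oncogenic fusion protein, and the leukemias were then passed through irradiated mice (7 and 3 Gy at the first transplantation, 3 Gy at the serial ones) up to quaternary recipients. All leukemias came from cells with an altered Gfi1 locus. In the 36S groups the human GFI1 gene replaced the mouse gene, and in the 36N groups the human variant that the labels call 36N did.

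Each of the 4 groups used had 3 libraries. They were 36S untreated (libraries 1 to 3), 36S TMZ (1 to 3), and 36N untreated and 36N TMZ (4 to 6 each), which served to place the 36S values on one scale and as a second genotype for comparison. For the treated groups, leukemic bone marrow cells were exposed during the 20 h that preceded RNA isolation, to 50 µg/ml of the drug. The labels do not say whether the untreated cells were kept in culture for as long, so exposure to the drug and time in culture cannot be told apart. Any difference in preparation, sequencing or source between treated and untreated libraries would coincide with treatment and cannot be told apart from it either. The labels also do not say whether the 3 libraries of a group come from 1 leukemia, so the p-values below measure only the spread between these libraries. In total bone marrow, fewer cells of a type and less RNA per cell cannot be told apart.

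The 2 groups stand in separately normalized tables of normalized counts, linked by 36N libraries that occur in both of a pair of tables. Each gene was multiplied by its mean ratio in those 36N libraries, which put all 12 libraries on the scale of the 36N table that holds treated and untreated libraries together. Of 16062 genes in all 3 tables, 1744 had a bridging value of 0 and 985 had a mean under 10, which left 13333 genes. The 36S values played no part in choosing them. The mean was taken over all 12 bridging values, so a gene near 0 without TMZ could pass mainly through treated 36N libraries, and the reverse. With a mean of 10 asked of each set of bridging values, 11936 genes were left. Levels below are bridged normalized counts. A log2 fold change is the mean of log2(value + 1) with TMZ minus that without, which understates the change of a gene near 0. Positions are those of the mouse build mm10. Because the bridge runs through 36N, a 36S change is the 36N change plus the 36S to 36N difference with TMZ, minus that difference without it. A gene listed at 0 was not read as silent, since Xrcc5, a subunit of the DNA end-binding protein Ku that nearly all cells use, was also listed at 0 in 1 untreated library.

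TMZ breaks down in water to a species that methylates DNA. A small part of the damage is a methyl group on the oxygen of guanine, which the repair protein MGMT removes directly. Where it stays, it mispairs, mismatch repair attacks the new strand again and again, and the cell can arrest or die through checkpoint kinases and p53. MLL-AF9 keeps myeloid progenitors in a self-renewing state through targets such as the Hoxa genes and Meis1. GFI1 is a zinc finger repressor of transcription that steers progenitors toward granulocytes.

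The libraries were compared before the genes. Bridged totals over the 13333 genes, in units of 1e6, were 15.09 to 15.79 in 36S untreated and 16.4 to 17.5 in 36S TMZ. Pearson correlations of log2 values across genes, which are not independent replicates, were 0.965 to 0.9811 within 36S untreated and 0.9591 to 0.9688 within 36S TMZ, but only 0.7194 to 0.7773 between those groups. Each 36S TMZ library resembled a 36N TMZ library more than it resembled any other 36S TMZ library. The pairs were 36S TMZ 1 with 36N TMZ 4 (r = 0.9831), 2 with 5 (r = 0.9837) and 3 with 6 (r = 0.9742).

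**Figure D1:**
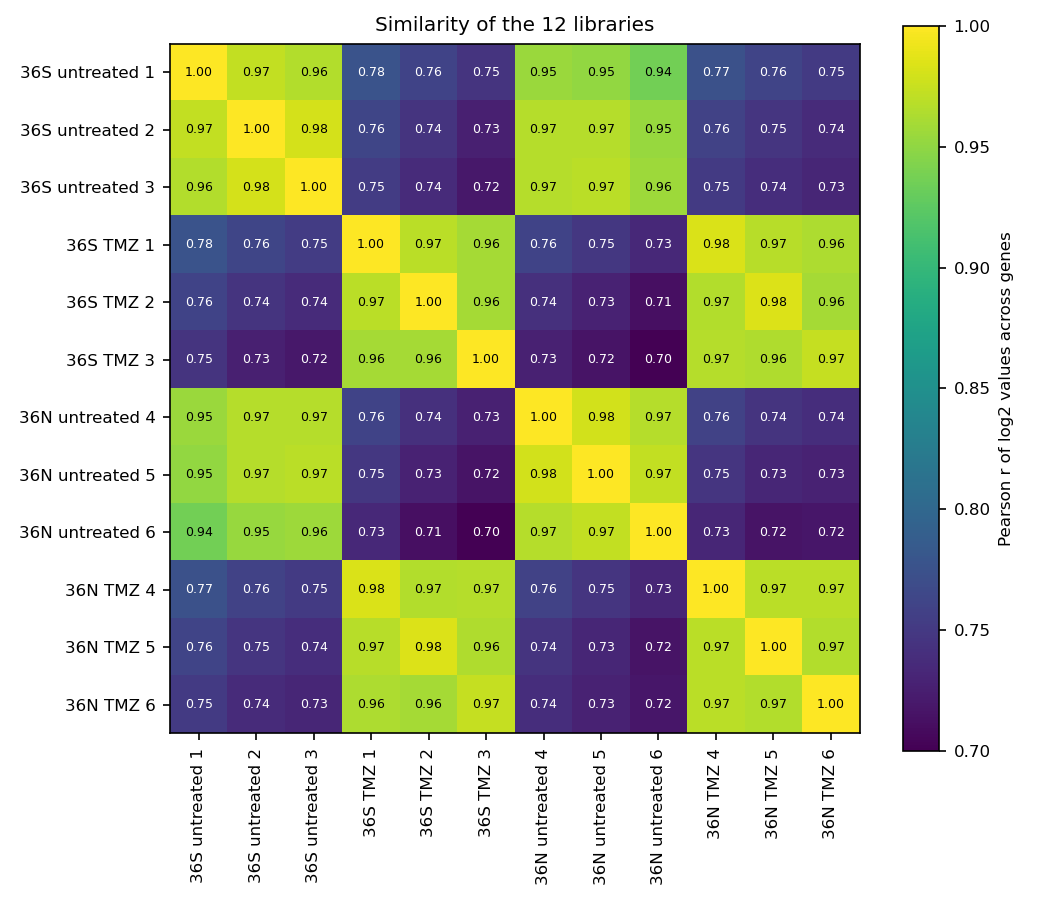
Pearson correlation of log2(bridged normalized count + 1) across 13333 genes for each pair of the 12 libraries, as colour and number. Treated and untreated libraries form separate blocks, and the brightest cells off the diagonal among the treated libraries join 36S TMZ 1 to 36N TMZ 4 and 36S TMZ 2 to 36N TMZ 5.

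The Y-linked helicase gene Ddx3y, which male cells express, differed among libraries that share a label. In the table of untreated cells Ddx3y stood at 629, 551 and 615 in 36S libraries 1 to 3. In the table of treated cells it stood at 1934, 0 and 1720 in 36S TMZ 1 to 3, and at 1646, 0 and 2153 in 36N TMZ 4 to 6. Libraries 36S TMZ 2 and 36N TMZ 5 thus stood apart from their groups, and they are also the pair with the highest correlation above. Eif2s3y, another Y-linked gene, was at 0 in the library labelled 36S TMZ 2 after 782 in untreated library 2. Of 3 bridged genes of the X and Y marker list 1 was called, Uty, at 1047, 1339 and 1308 untreated against 317, 88.4 and 262. Same-numbered untreated and treated libraries were therefore not taken to come from 1 animal. Without 36S untreated 1 (high in neutrophil genes, below) and 36S TMZ 2, the comparison called 7053 genes in place of 8271.

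**Figure D2:**
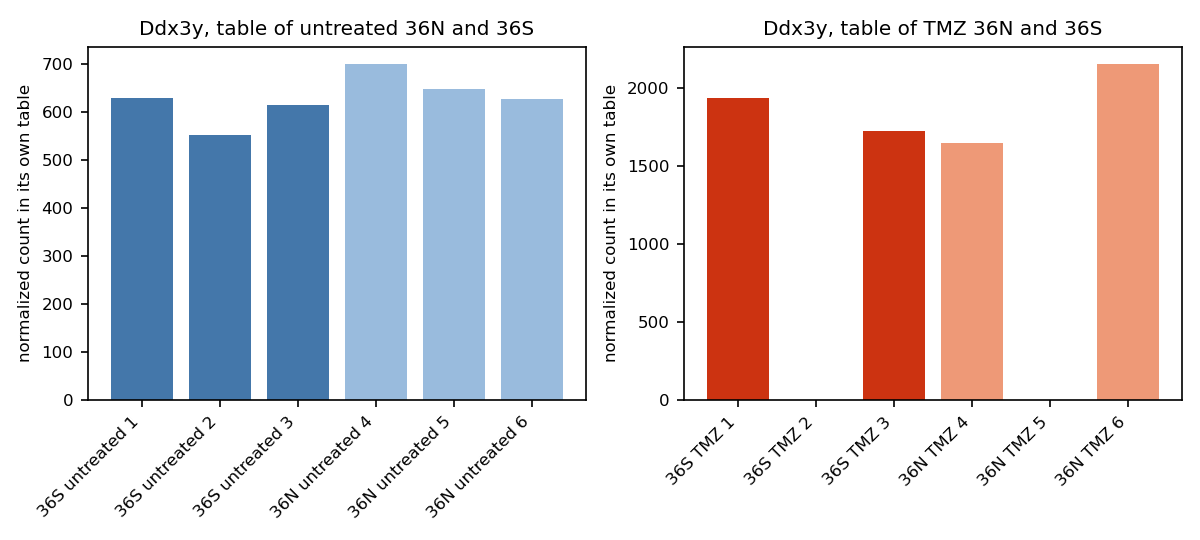
Normalized count of Ddx3y in each library, in the table of untreated libraries (left) and the table of treated libraries (right), whose scales differ. All 6 untreated libraries express it, between 551 and 701, while 36S TMZ 2 and 36N TMZ 5 are listed at 0.

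The difference between treated and untreated 36S cells ran through most of the transcriptome. Of 13333 genes tested with limma, 8271 differed at an adjusted p under 0.05 (62%), 4195 higher (31.5%) and 4076 lower (30.6%) with TMZ. At least 2-fold differences numbered 3096 upward and 2908 downward, and at least 16-fold differences 322 and 223. Groups did not overlap for 9093 genes (68.2%), with TMZ above untreated for 34.5% and below for 33.7% of genes. The median log2 fold change was -0.0017, and scaling the libraries to equal totals moved it to -0.148 and the split to 3732 higher and 4577 lower, so the balance of directions rests on the scaling. With so many calls, a gene list is described below by how far it departs from these shares and from that median. The lists with the highest medians were those of mast cells, megakaryocytes and STAT5 targets, and the lists with the lowest, apart from the X and Y markers, were MLL-fusion targets and B cells.

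**Figure D3:**
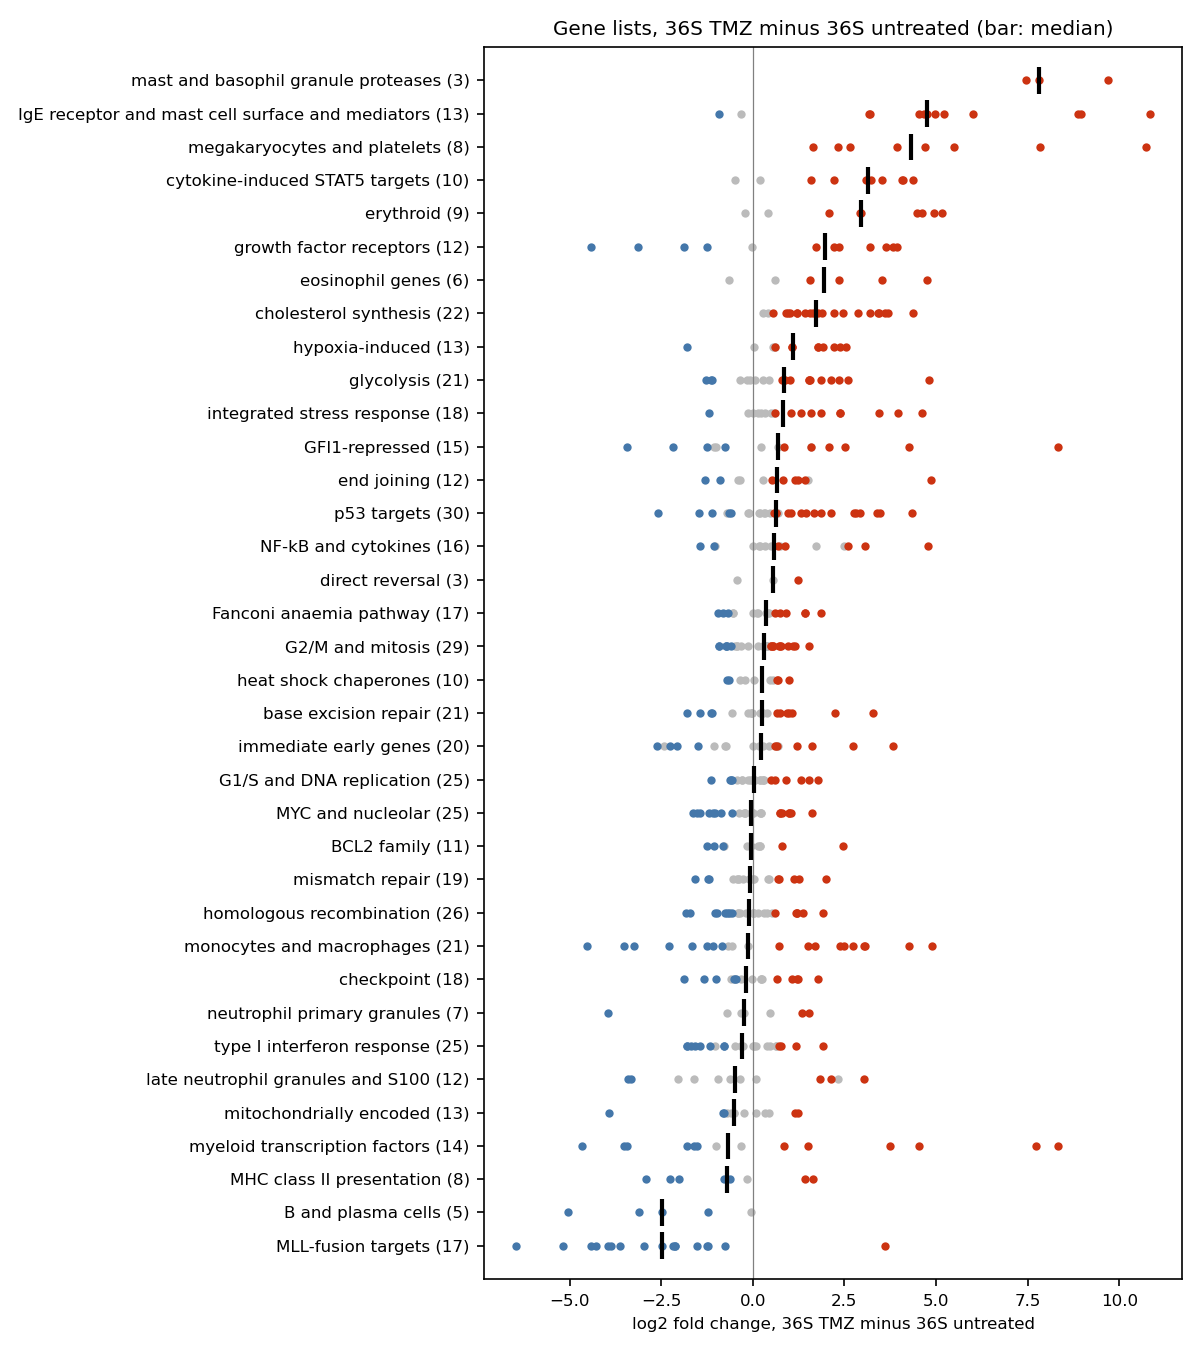
Log2 fold change of each bridged member of the gene lists in 36S (without the T and NK cell and the X and Y marker lists), TMZ minus untreated, with the number of members in brackets. Points are genes (red higher, blue lower at an adjusted p under 0.05, grey not called) and black bars are list medians, which run from 7.80 for mast and basophil proteases to -2.49 for MLL-fusion targets.

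The lists of mast cell and basophil genes had the highest medians. These cells store proteases and amines in granules and release them when IgE on their surface binds antigen. All 3 bridged granule protease genes were higher with TMZ (median log2 fold change 7.80), as were 11 of 13 genes of the IgE receptor, mast cell surface and mediators (median 4.75), with 1 lower. The summed level of the 3 proteases was 321 to 622 in untreated and 52720 to 136300 in TMZ libraries, and that of the 13 surface and mediator genes 9828 to 11380 and 86090 to 136300.

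Il1rl1, the receptor for interleukin-33 (chromosome 1, 40429570 to 40465415), stood at 8.05, 3.63 and 10.7 in 36S untreated 1 to 3 and at 13559, 20486 and 11046 in 36S TMZ 1 to 3. This was a 2013-fold difference of means (log2 fold change 10.85, SE 0.37, adjusted p = 6.1e-07). Cpa3, the mast cell carboxypeptidase, stood at 456, 207 and 276 untreated and at 39089, 89721 and 83477 with TMZ (log2 fold change 7.80, SE 0.37, adjusted p = 1.9e-06). Every treated library lay far above every untreated one, while treated library 1 was the lowest of its group for Cpa3. Mcpt8, a basophil protease, was likewise lowest in treated library 1, at 151, 109 and 101 untreated against 8319, 25109 and 44235. Gzmb, a granzyme that killer lymphocytes and also mast cells make, stood at 14.6, 5.47 and 5.62 against 5313, 8179 and 8628. Ms4a2, the beta chain of the IgE receptor, stood at 66.0, 21.1 and 18.7 untreated and at 8249, 23214 and 15507 with TMZ.

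The shared gamma chain of Fc receptors, Fcer1g, went the other way, at 6504, 5417 and 6307 untreated against 2064, 3279 and 4854 (log2 fold change -0.92, adjusted p = 0.020). Mitf, a transcription factor of mast cells and pigment cells, was not called (log2 fold change -0.33, adjusted p = 0.24). Slc18a2, the vesicle transporter that loads histamine and other amines into granules, stood at 27.0, 27.5 and 11.97 against 8267, 11928 and 12698. The amine and lipid mediator genes were higher as well. Hdc, which makes histamine, had a log2 fold change of 4.69, and the leukotriene and prostaglandin genes Alox5, Alox5ap, Ltc4s and Hpgds had values of 6.01, 3.17, 5.21 and 4.75.

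Several defining mast cell genes had no bridged value and are given on the scale of the treated table. Fcer1a, the IgE-binding chain of the receptor, stood between 8931 and 35100 in the 3 36S TMZ libraries and was listed at 0 in all 3 untreated 36N libraries of the table of 36N cells. For Prss34, a basophil protease, the range was 22390 to 112800 with TMZ, against 0 to 48.6 in 36S untreated in the untreated table. Cma1, mast cell chymase, stood between 1673 and 7850 with TMZ, and Tpsb2, a tryptase, between 1197 and 5188. The cytokine gene Il4 stood between 123 and 301. In the untreated libraries used for them, these genes stood at 48.6 at most. For all but Prss34 those untreated libraries were 36N ones on another scale, so genotype differed as well as treatment.

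Promoters of Il1rl1, Slc18a2 and Ms4a2 are shown because these mast cell genes had some of the largest increases and carry letters that GATA factors are known to bind. The sequences are from RefSeq (GRCm38.p6), run from 250 bases before to 50 after the gene start, 5′ to 3′ on the gene's strand, with AGATAA or TGATAA, or the same letters on the other strand (TTATCT or TTATCA), in capitals. They cover chr1:40429320-40429619 (plus strand), chr19:59260628-59260927 (plus strand) and chr19:11623670-11623969 (minus strand).
Il1rl1: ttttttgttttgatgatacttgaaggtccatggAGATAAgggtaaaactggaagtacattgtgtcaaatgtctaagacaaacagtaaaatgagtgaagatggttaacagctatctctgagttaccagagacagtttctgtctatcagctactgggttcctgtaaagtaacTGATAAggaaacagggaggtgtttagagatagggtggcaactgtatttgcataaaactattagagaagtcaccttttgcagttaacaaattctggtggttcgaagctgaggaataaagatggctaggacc
Slc18a2: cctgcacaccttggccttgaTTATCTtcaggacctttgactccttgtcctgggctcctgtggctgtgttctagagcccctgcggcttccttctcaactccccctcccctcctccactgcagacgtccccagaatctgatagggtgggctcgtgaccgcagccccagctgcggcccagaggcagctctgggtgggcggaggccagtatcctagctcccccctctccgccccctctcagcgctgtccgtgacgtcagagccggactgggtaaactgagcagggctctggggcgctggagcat
Ms4a2: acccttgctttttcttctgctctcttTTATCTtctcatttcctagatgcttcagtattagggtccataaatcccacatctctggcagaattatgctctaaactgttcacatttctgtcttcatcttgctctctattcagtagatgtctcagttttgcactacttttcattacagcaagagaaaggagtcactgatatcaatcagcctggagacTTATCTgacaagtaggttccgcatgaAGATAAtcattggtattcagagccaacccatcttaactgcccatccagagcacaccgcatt

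Il1rl1 holds 2 matches, Slc18a2 holds 1 and Ms4a2 holds 3. Of the 22 genes of the mast cell and megakaryocyte lists that were higher with TMZ, 19 had a promoter in the RefSeq table, and 8 of these (42.1%) held at least 1 match on either strand. The share was 19% over all 27025 promoters of the table and 11.2% over 10195 promoters of bridged genes. A match describes the letters of the window and is not evidence of binding.

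The GATA factors and their partners differed in level too. Gata2 (chromosome 6, 88193891 to 88207032), which mast cell and stem cell programs need, stood at 611, 504 and 469.6 untreated and at 9158, 15159 and 13222 with TMZ (23.7-fold, log2 fold change 4.54, SE 0.21, adjusted p = 1.8e-06). Tal1, a stem cell and erythroid factor that works with GATA proteins, stood at 25.3, 2.38 and 4.93 against 1276, 1962 and 2032. Gfi1b, the GFI1 relative of erythroid and megakaryocyte cells (chromosome 2, 28609450 to 28621982), stood at 5.60, 2.21 and 4.02 against 1080, 2523 and 1277 (log2 fold change 8.32, SE 0.41, adjusted p = 2.1e-06). The 3 genes thus had no overlap between groups. Gata1, which drives erythroid, megakaryocyte and mast cell genes, could not be bridged and stood between 1121 and 1869 in 36S TMZ against 0 to 0.646 in 36S untreated, each in its own table.

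**Figure D4:**
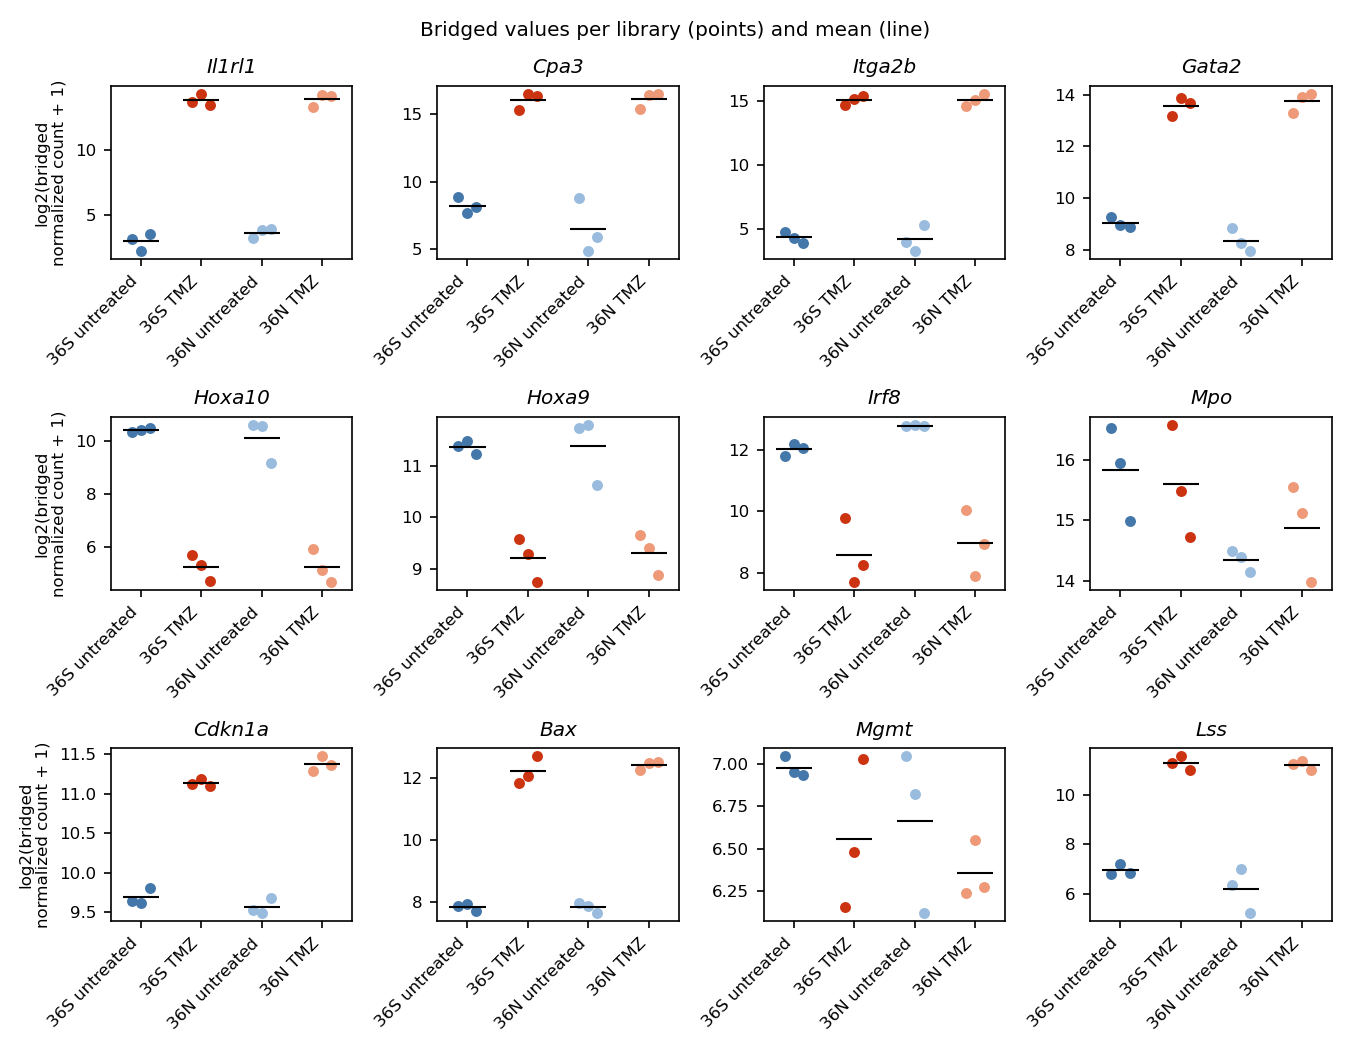
Log2(bridged normalized count + 1) of 12 genes in each library (points) with the group mean (line), for 36S and 36N without and with TMZ. The mast cell and megakaryocyte genes of the top row separate by treatment without overlap in both genotypes, whereas Mpo and Mgmt overlap.

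Platelet and megakaryocyte genes were higher for 8 of 8 bridged members (median log2 fold change 4.32). Itga2b, the integrin chain of the platelet fibrinogen receptor that mast cells and progenitors also carry (chromosome 11, 102453297 to 102470122), stood at 26.6, 18.4 and 14.2 against 25595, 36108 and 43444 (log2 fold change 10.73, SE 0.27, adjusted p = 3.5e-07). Pf4, a platelet chemokine, stood at 11.6, 10.9 and 3.92 against 1480, 1644 and 3534. Other members were far lower in level. Treml1 reached 120 at most, and Clec1b overlapped between groups (9.71, 20.2 and 4.22 against 36.7, 16.3 and 55.6, log2 fold change 1.65, adjusted p = 0.048). The list's summed level was 192.5 to 255 untreated and 28780 to 48770 with TMZ, most of it Itga2b. Where a mean of 10 was asked of each bridging group, 4 members were called.

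Of 9 bridged erythroid genes 7 were higher (median 2.96) and none lower. Alas2, a heme synthesis enzyme of erythroid cells without a bridged value, went the other way. It stood between 5.92 and 24.35 untreated and between 0.619 and 5.62 with TMZ, on separate scales. The erythroid genes Car1 and Hba-a2, also unbridged, were higher (0 to 2.23 against 18.6 to 112, and 5.56 to 9.18 against 31.8 to 211.8). Hbb-bs, an adult beta globin, stood at 1.30, 4.99 and 5.50 against 173, 82.7 and 175, low levels for a globin. Klf1, the erythroid transcription factor, stood at 5.60, 5.91 and 7.34 against 111, 147 and 339, and Tfrc, the transferrin receptor that many dividing cells use, had a log2 fold change of 2.93. With a mean of 10 in each bridging group 4 erythroid genes were called. Eosinophil genes were called higher for 4 of 6 members. Ccr3, among the 4, stood at 1.72, 3.36 and 14.5 in 36N untreated and passed the minimum mean mainly through treated 36N libraries. Prg2, the major basic protein of eosinophil granules, stood at 87.1, 36.9 and 22.3 against 798, 1098 and 1787, without overlap.

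The other large increases included genes outside these lists. Lama5, a laminin chain, had the largest of the named increases, from 1.93, 6.50 and 4.48 to 16835, 20748 and 22391 (log2 fold change 11.97, SE 0.33, adjusted p = 3.5e-07). Ltbp3, which binds latent TGF-beta, had a log2 fold change of 9.16, Alox15, a lipoxygenase, 8.65, Ifitm1, a membrane protein, 8.45, and the receptor genes Cd200r4 and Ptger3 8.75 and 8.73. The transporter genes Slc22a3 and Slc45a3 had values of 8.32 and 8.31. Untreated values were at most 24.7 in these genes, so the size of each fold rests on low values. Lama5, Ptger3, Alox15 and Slc45a3 were also under 10 in every 36N untreated library. They passed the minimum mean mainly through treated 36N libraries.

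Targets of MLL fusion proteins were lower for 16 of 17 bridged members, with a median log2 fold change of -2.49. The background share lower was 30.6%. Hoxa10, a homeobox gene of the cluster that MLL controls, stood at 1303, 1386 and 1448 against 50.5, 38.9 and 25.2 (log2 fold change -5.19, SE 0.27, adjusted p = 2.4e-06). Hoxa9, central to these leukemias (chromosome 6, 52223100 to 52231089), stood at 2686, 2866 and 2412 against 765, 626 and 429, a 4.38-fold lower mean (log2 fold change -2.16, SE 0.22, adjusted p = 5.8e-05). Its partner Meis1 moved least, from 1294, 1664 and 1766 to 752, 973 and 1050 (log2 fold change -0.77, adjusted p = 0.0079), and its groups still did not overlap.

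Mef2c, Runx2, Zeb2 and Cdk6 had log2 fold changes of -4.27, -3.94, -2.96 and -3.63. The first 3 encode transcription factors, and Cdk6 encodes a cell cycle kinase that MLL leukemia depends on. Myb, a progenitor factor, stood at 12993, 15269 and 12057 against 5134, 7605 and 4759. Flt3, a progenitor cytokine receptor, spread widely among untreated libraries (308, 711 and 1147) and stood at 50.6, 33.7 and 13.2 with TMZ. Mecom, a stem cell factor, was the single member called higher, at 0, 0.860 and 2.26 against 21.5, 25.7 and 17.0.

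Factors and surface genes of the monocyte and dendritic lineages had calls in both directions. Irf8, which these lineages need (chromosome 8, 120736358 to 120756694), stood at 3563, 4680 and 4243 untreated and at 880.4, 208 and 304 with TMZ (8.97-fold lower, log2 fold change -3.43, SE 0.45, adjusted p = 0.00023). Klf4 and Irf4, 2 more monocyte and dendritic cell factors, had log2 fold changes of -3.51 and -4.66. Spi1 and Runx1, general myeloid factors, had values of -1.61 and -1.53, and Cebpa, the granulocyte factor, 1.49. Thus 6 of 14 bridged myeloid transcription factors were higher and 6 lower. Beside 31.5% higher and 30.6% lower over all genes, this count is read as no result about the list.

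Of 21 monocyte and macrophage genes 10 were higher and 8 lower. Of all genes 31.5% were higher and 30.6% lower, and this mixed count is read as no result about the list. F13a1, a clotting factor subunit of monocytes, stood at 21550, 28678 and 31068 against 3350, 526 and 902, whereas Fcgr1, the high-affinity IgG receptor, stood at 14.7, 15.7 and 2.10 against 319, 257 and 260. In 36N untreated Fcgr1 stood at 3.14, 0.972 and 5.35, so it passed the minimum mean mainly through treated 36N libraries. Mrc1, a mannose receptor of macrophages, was also higher, at 60.7, 12.3 and 24.4 against 774, 368 and 513. In MHC class II presentation 5 of 8 genes were lower and 2 higher. Ciita, its master regulator, stood at 28.6, 24.6 and 66.9 against 5.16, 3.63 and 3.13, but H2-Ab1, a class II chain, at 137, 110.0 and 144 against 376, 474 and 366. The class II list thus had calls in both directions.

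Neutrophil genes spread widely within groups. Primary granule genes numbered 2 higher and 1 lower of 7. Mpo, myeloperoxidase, stood at 95387, 63546 and 32615 untreated and at 98333, 46034 and 27029 with TMZ, which overlapped. Elane, neutrophil elastase, stood at 68262, 48838 and 37904 against 7200, 2609 and 1769 (log2 fold change -3.96, SE 0.47, adjusted p = 0.00013), while Ctsg, cathepsin G, which mast cells also make, stood at 10621, 8056 and 6872 against 17402, 28008 and 29179. Late granule and S100 genes numbered 3 higher and 2 lower of 12, and their summed level ranged from 11020 to 99500 among the untreated libraries, highest in library 1. With 31.5% higher and 30.6% lower over all genes, the counts of both neutrophil lists are read as no result. Ltf, lactoferrin, was called higher (log2 fold change 3.04, adjusted p = 0.040) with overlapping groups, and that call was lost without untreated library 2 or 3 and in other alternatives.

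B and plasma cell transcripts were lower with TMZ. Of 5 bridged B and plasma cell genes 4 were lower (median -2.48), with summed levels of 6381 to 8088 untreated and 292.6 to 661 with TMZ. Ighm, the immunoglobulin mu chain, stood at 5761, 7545 and 5841 against 392, 96.9 and 180.3. Igkc, the kappa light chain, stood between 2565 and 5411 in 36S untreated and between 0 and 6.55 in 36S TMZ, each in its own table, and Jchain between 285 and 586 and between 1.17 and 2.41. Cd3e, a T cell receptor component, stood between 8.26 and 23.7 untreated and was listed at 0 in all 3 treated libraries. The killer cell granule gene Nkg7 went the other way (136, 42.6 and 19.9 against 647, 994 and 999), so that of 4 bridged T and NK cell genes 1 was higher and 1 lower. Prf1, the pore-forming protein of killer cells, could not be bridged and stood between 0 and 3.61 in 36S untreated and between 7.36 and 14.7 in 36S TMZ, each in its own table. The summed level of the 4 bridged T and NK cell genes was 93.3 to 227 untreated and 665 to 1106 with TMZ. Most of the sum with TMZ was Nkg7. The part of lymphoid RNA in the other results was not tested.

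Genes that cytokine receptors induce through STAT5 were higher for 8 of 10 members (median 3.15) and none was lower. Cish and Socs2, feedback inhibitors of cytokine signalling, stood at 51.1, 31.8 and 44.5 against 628, 899 and 654, and at 7.38, 26.8 and 36.0 against 360.3, 424 and 497. Osm, a cytokine, and Pim1, a survival kinase, had log2 fold changes of 3.52 and 3.08. Socs3 was higher too, but library 36S TMZ 1 stood at 523 against 94.9 and 113 in the others.

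Receptors for growth factors had calls in both directions, with 7 of 12 higher and 4 lower, beside 31.5% and 30.6% over all genes. Kit, the stem cell factor receptor of mast cells and progenitors (chromosome 5, 75574916 to 75656722), stood at 1373, 1335 and 1007 against 11740, 13636 and 8961 (9.24-fold, log2 fold change 3.20, SE 0.21, adjusted p = 5.9e-06). Csf2rb2, the mouse beta chain of the interleukin-3 receptor, stood at 1765, 1350 and 1833 against 20362, 26860 and 23352. Il3ra, Csf2rb and Il5ra, chains of the interleukin-3 and interleukin-5 receptors, had log2 fold changes of 2.20, 1.71 and 2.35. Csf1r, Csf3r and Il6ra, the receptors for macrophage and granulocyte colony-stimulating factors and interleukin-6, had values of -1.25, -1.87 and -3.12. Csf2ra, the alpha chain of the granulocyte-macrophage receptor, was not called (-0.01, adjusted p = 0.98).

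Cholesterol synthesis was the most uniform metabolic list, with 20 of 22 genes higher, none lower and a median of 1.72. Lss, which closes the sterol ring, stood at 109, 148 and 115 untreated against 2553, 3107 and 2080 with TMZ (log2 fold change 4.36, SE 0.21, adjusted p = 2.0e-06). Msmo1, which removes methyl groups from the sterol ring, stood at 257, 279 and 295 against 3684, 4261 and 2906, and Sqle and Cyp51, enzymes of earlier steps, had log2 fold changes of 3.43 and 3.20. The count was within 1.5 times in every alternative run. The letters TCACNCCAC, a sterol element on either strand, were found in 1 of 13 promoters of the members called higher (Hmgcs1), against 1.22% of all promoters.

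Glycolysis genes were higher for 12 of 21 members and lower for 3, and hypoxia-induced genes higher for 9 of 13 and lower for 1. Of all genes 31.5% were higher and 30.6% lower. Slc2a3 and Slc2a1, glucose transporters, stood at 295, 202 and 231 against 7740, 7931 and 5088, and at 451, 488 and 501 against 3460, 3390 and 2055. Gapdh, in contrast, had a log2 fold change of -1.12 (adjusted p = 0.0047). Library 36S TMZ 3 was the lowest treated library for both transporters and for Ero1l, an oxidizing enzyme of the endoplasmic reticulum (2441, 2713 and 2504 against 12920, 16459 and 7897). Genes of the integrated stress response were higher for 10 of 18 and lower for 1, led by Trib3, Phgdh and Ppp1r15a (log2 fold changes 4.63, 3.97 and 3.45). Ddit3, the stress factor CHOP, stood at 129.6, 130.5 and 129.9 against 271, 852 and 1391, a wide spread among treated libraries.

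The targets of p53 addressed the response to DNA damage. Of 30 bridged targets 16 were higher and 5 lower, with a median of 0.64. The shares over all genes were 31.5% higher and 30.6% lower. Cdkn1a, the p21 cell cycle inhibitor (chromosome 17, 29090976 to 29100727), stood at 799.9, 782 and 896 untreated and at 2224, 2330 and 2186 with TMZ, or 2.72 times the untreated mean (log2 fold change 1.44, SE 0.15, adjusted p = 5.3e-05). Bax, which permeabilizes mitochondria (chromosome 7, 45461697 to 45466898), stood at 231, 245 and 209.8 against 3656, 4257 and 6635 (log2 fold change 4.36, SE 0.23, adjusted p = 2.4e-06). Gadd45a, a damage-induced regulator, stood at 93.6, 56.3 and 54.7 against 745, 741 and 742. The treated libraries were thus close together for Cdkn1a and Gadd45a and clear of the untreated ones.

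Other targets with large increases were Plk2 (3.39), Phlda3 (2.92), Plk3 (2.81) and Bbc3, the death factor PUMA (2.76), as log2 fold changes. Mdm2, the ubiquitin ligase that limits p53, overlapped between groups, at 1314, 1222 and 1466 against 1645, 2103 and 1377 (log2 fold change 0.34, adjusted p = 0.15). Trp53 itself (chromosome 11, 69580359 to 69591873) was lower, at 4926, 4046 and 3654 against 1862, 2359 and 2144 (log2 fold change -0.98, SE 0.17, adjusted p = 0.0012). Tigar, Xpc and Rrm2b, targets in metabolism, lesion recognition and nucleotide supply, were lower by log2 fold changes of -2.59, -1.46 and -1.10. In the BCL2 family 2 of 11 genes were higher and 3 lower, among them the survival gene Bcl2, at 1570, 1544 and 1566 against 503, 772 and 741, and Bak1, at 4385, 3813 and 3656 against 1800, 1890 and 1973. Beside the shares over all genes (31.5% higher and 30.6% lower), the BCL2 counts are read as no result about the family.

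Repair of the lesions that TMZ makes was examined next. Mgmt (chromosome 7, 136894614 to 137130266) stood at 131, 123 and 121 untreated and at 70.2, 88.2 and 129.8 with TMZ, so the groups overlapped (log2 fold change -0.42, SE 0.29, adjusted p = 0.23). Alkbh2, another direct reversal enzyme, stood at 18.5, 42.9 and 41.4 against 79.1, 64.9 and 89.6 (log2 fold change 1.24, adjusted p = 0.023), and its call was lost in several alternatives. Of 19 mismatch repair genes 5 were higher and 3 lower, or 6 lower with equal totals. Beside 31.5% higher and 30.6% lower over all genes, this count is read as no result about the list. Msh6, a subunit of a mismatch sensor, had a log2 fold change of -0.27 (adjusted p = 0.33), and Rfc2, a subunit of the clamp loader, stood at 1402, 1145 and 931 against 3639, 4129 and 6321.

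Base excision repair numbered 7 higher and 4 lower of 21, homologous recombination 6 and 8 of 26, the Fanconi anaemia pathway 6 and 3 of 17, and end joining 6 and 2 of 12. Of all genes 31.5% were higher and 30.6% lower, and these counts are read as no result about the lists. Parp2, a sensor of strand breaks, stood at 329.9, 299.9 and 350 against 2701, 3547 and 3320 (log2 fold change 3.28, SE 0.17, adjusted p = 2.3e-06), but with 1 ratio per table its call was lost (0.390, adjusted p = 0.079). Ogg1, which removes oxidized guanine, was lower, at 554, 567 and 518 against 186, 201 and 216. Mus81, a nuclease of stalled forks, stood at 155, 189 and 165 against 580, 593 and 770.2. Xrcc5 stood at 0, 4.33 and 1.52 against 69.2, 69.8 and 67.1, very low for a gene of general use. Brought to the common scale with 1 ratio per table instead of 1 per gene, the higher genes numbered 3 each in mismatch repair, base excision repair, the Fanconi pathway and end joining, so these counts rest on the gene-wise bridge.

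The checkpoint list had 5 higher and 5 lower of 18. Its kinases Atm and Atr went apart, Atm at 461, 585 and 513 against 1243, 1693 and 874 (log2 fold change 1.24, but -0.475 with 1 ratio per table) and Atr at 1037, 1702 and 1422 against 562, 490 and 562 (-1.34, but -0.161 and no call with 1 ratio). Genes of G1/S and DNA replication numbered 6 higher and 4 lower of 25, and those of G2/M and mitosis 11 and 6 of 29. With 1 ratio per table the higher counts were 2 and 5, and G2/M had 7 with equal totals and 6 without 36S untreated 2 or 3. Mcm2, a subunit of the replicative helicase, shows the difference, with a log2 fold change of 1.77 by the gene-wise bridge and -0.577 with 1 ratio per table. Aurkb, a mitotic kinase, stood at 786, 685 and 699.7 against 1508, 1813 and 1340 by the gene-wise bridge. No direction is therefore given for the cycle lists. Nor is the checkpoint count read as a result, since of all genes 31.5% were higher and 30.6% lower.

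Of 25 MYC and nucleolar genes 7 were higher and 8 lower, and the 7 fell to 0 with 1 ratio per table. Myc itself (chromosome 15, 61985391 to 61990374) stood at 4535, 4928 and 3747 untreated and at 1822, 2030 and 971 with TMZ (2.74-fold lower, log2 fold change -1.51, SE 0.27, adjusted p = 0.0014). Ncl, nucleolin, was also lower (29166, 25280 and 23943 against 6725, 8771 and 14700). Type I interferon genes numbered 4 higher and 8 lower of 25, the 8 becoming 4 without untreated library 1 and 5 without 36S TMZ 1. Among NF-kB and cytokine genes 5 of 16 were higher and 2 lower. Beside 31.5% higher and 30.6% lower over all genes, the MYC, interferon and NF-kB counts are read as no result about the lists. Ccl2, a monocyte chemokine, stood at 13.9, 10.9 and 3.23 against 194, 565 and 139.6, and Tnf at 287, 243 and 209.6 against 104, 115 and 58.9.

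Immediate early genes, which respond within minutes to stimulation, numbered 6 higher and 4 lower of 20. The shares over all genes were 31.5% higher and 30.6% lower. This count, and the chaperone and mitochondrial counts below, are read as no result about the lists. Ier3, a stress-induced survival gene, stood between 33.0 and 91.1 untreated and at 672, 908 and 907 with TMZ, while Fosl2, an AP-1 subunit, stood at 4017, 5983 and 5831 against 1311, 631 and 726. Zfp36, which destabilizes cytokine transcripts, was lower as well (log2 fold change -2.27, adjusted p = 4.6e-05). Heat shock chaperones had 3 of 10 higher and 2 lower, or 0 higher with 1 ratio per table. Of 13 mitochondrially encoded genes 2 were higher and 3 lower. The largest change among them was in mt-Nd6, a subunit of respiratory complex I and the light-strand protein gene, at 19310, 17836 and 16133 against 1193, 1400 and 927.

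The list of targets repressed by GFI1 had 6 of 15 members higher and 4 lower (median 0.69). Over all genes 31.5% were higher and 30.6% lower, so this count is read as no result about the list. Csf1, the macrophage growth factor, stood at 267, 118 and 145 untreated and at 2791, 3365 and 3391 with TMZ (log2 fold change 4.25, SE 0.29, adjusted p = 7.0e-06), and Gfi1b and Irf8, with the highest and lowest values of the list, are given above. Gfi1 itself had no bridged value and is not analysed here.

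Large decreases were also seen outside the lists. Ccnb1ip1, a ubiquitin ligase (chromosome 14, 50789248 to 50807732), stood at 28063, 20340 and 16558 untreated and at 29.4, 8.40 and 14.99 with TMZ (log2 fold change -10.31, SE 0.39, adjusted p = 8.9e-07). Parp2, higher with TMZ, begins at 50807841, next to it. Rasgrf2, an exchange factor for Ras, stood at 655, 967 and 1136 against 3.43, 0 and 0, and Pax8, a paired box factor, at 1531, 1210 and 1304 against 23.6, 1.72 and 0. Ifi214 and Ifi213, neighbours of the interferon-inducible PYHIN family, had log2 fold changes of -8.09 and -7.70. Ly86, a partner of a Toll-like receptor relative on B and myeloid cells, stood at 2789, 2903 and 3515 against 28.1, 14.7 and 36.0. Slc26a10, Mtus2, Cpn1 and Gadl1 had log2 fold changes of -7.88, -7.09, -7.48 and -6.74.

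Some decreases fell on large gene families. Whether the assignment of reads among similar genes plays a part was not tested. Of 211 odorant receptor genes with a bridged value 150 were lower and 5 higher, and of 114 vomeronasal receptor genes 84 were lower and 2 higher; these families were singled out after their values were seen. Olfr1264, an odorant receptor gene, stood at 497, 924 and 1112 against 2.88, 3.31 and 2.40. Of 6 histone genes named Hist, whose transcripts usually lack a poly(A) tail, 5 were lower, Hist1h2bq at 12481, 9142 and 9077 against 60.0, 52.8 and 115.8.

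Of 3 genes summed with a copy, 2 had a sum that differed in direction from the copy. Eno1b, a copy of the enolase gene Eno1, was lower with TMZ (log2 fold change -7.26), but the sum of both stood at 7136, 5817 and 6402 untreated against 23480, 23590 and 18810, higher by 1.77 on the log2 scale. Hmga1b, a copy of the chromatin gene Hmga1, was higher (8.98), but the sum stood at 18080, 15560 and 14510 against 3664, 3675 and 3311, a log2 ratio of -2.18. For Rps27, a ribosomal protein gene that was lower (-6.30), and its copy Rps27rt, which was not called (0.80, adjusted p = 0.081), the sum overlapped between groups, at 9801, 7201 and 6967 against 3214, 3593 and 8102. In protein-coding genes without the odorant, vomeronasal, histone and unnamed models, 7348 of 11953 genes were called, 3915 higher and 3433 lower.

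The TMZ difference in 36S was then set against that in 36N. Within 36N 8998 of the 13333 genes were called (67.5%), 4658 higher (34.9%) and 4340 lower (32.6%). The difference between the 36S and 36N effects was itself called for 40 genes (0.3%), 13 with the higher value in 36S (0.0975%) and 27 with the lower (0.203%), while 916 had an unadjusted p under 0.05. The 40 became 11 to 32 with 1 library left out (11 without 36S untreated 2), 19 with the replicate block, 116 with library weights and 1933 with 1 ratio per table. List medians in 36S and 36N were 7.80 and 8.81 for mast cell proteases, 4.32 and 4.03 for megakaryocyte genes, 1.72 and 1.87 for cholesterol synthesis, 0.64 and 0.86 for p53 targets and -2.49 and -2.07 for MLL targets. The difference of effects was called for 1 member of any list, Ogg1. Since the 36S effect contains the 36N bridge, the 2 effects are not independent measurements.

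For Kit the log2 fold change was 3.20 in 36S and 5.25 in 36N, for Hoxa10 -5.19 and -4.88, and for Gfi1b 8.32 and 6.37, and none of these differences was called. For Cdkn1a the values were 1.44 and 1.80, and for Mgmt -0.42 and -0.31. A difference that missed the threshold does not show that the genotypes respond alike. Over the same genes, 519 (3.89%) differed between untreated 36N and 36S, 2.25% higher and 1.64% lower in 36N. By limma 0 (0%) differed between the genotypes with TMZ, while 192 had an unadjusted p under 0.05. That test took no account of the pairs in which each treated 36S library resembled a 36N one. Whether the treated libraries all carry the right genotype label, or share a source across genotypes, was not tested.

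**Figure D5:**
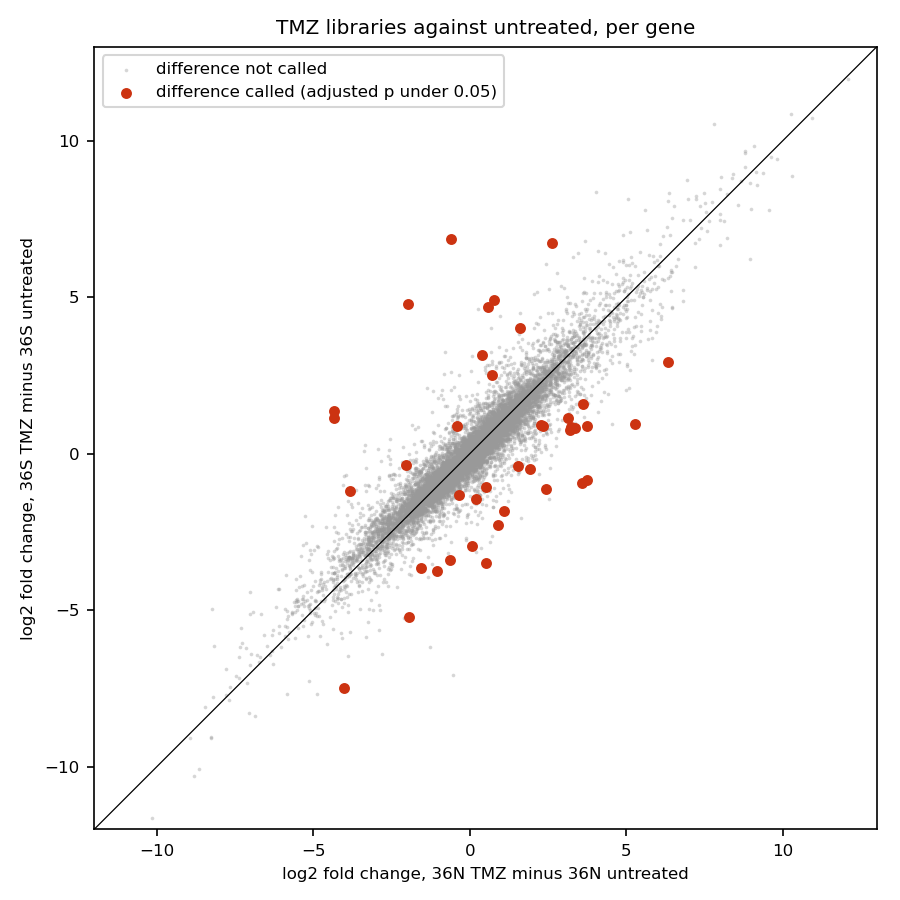
Log2 fold change of each of 13333 genes, TMZ minus untreated, in 36N (horizontal axis) and 36S (vertical axis), with the line of equal values. Red points are the 40 genes whose difference of effects was called; the axes share the 36N libraries used for the bridge.

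In the genes with the lowest p for the difference of effects, the untreated libraries differed by genotype. No difference was called between the treated ones, which held for every gene. Dip2c (chromosome 13, 9276528 to 9668928) stood at 273, 231 and 234 in 36S untreated and between 10.9 and 16.6 in 36N untreated, but at 169, 113 and 106 in 36S TMZ and at 175, 172 and 172 in 36N TMZ. The difference of its effects was -4.55 on the log2 scale (adjusted p = 7.3e-05). Zxdb, an X-linked zinc finger gene, stood at 1676, 1626 and 1846 in 36S untreated and at 320, 272 and 236 in 36N untreated, and at 132 to 210 in all 6 treated libraries. Ogg1 stood at 162, 167 and 221 in 36N untreated, against 518 to 567 in 36S untreated, and between 180 and 250.1 in all treated libraries. All 3 genes separated the genotypes without TMZ, and with it Zxdb and Ogg1 overlapped between them.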

How the data were processed

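The authors deposited normalized counts per gene (a signal not in whole reads) in tables of several libraries. Salmon, DESeq2 and the build mm10 are named in the submitters' processing notes, without roles or versions, so the depth in reads is unknown. Of the tables, 3 were used, and 12 libraries were mapped by label. For each gene the mean ratio over the 3 shared 36N libraries carried 36S values to the scale of the 36N table. This ratio was constant over libraries, after a library factor, within 0.01 on the log2 scale for all but 13 genes, but differed between genes: its part in the 36S log2 difference ran from -0.7002 to 1.371 (5th to 95th percentile).

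Log2(value + 1) was tested with limma-trend (limma 3.58.1, R 4.3.3) on 3 against 3 libraries, the difference of effects on 12, with Benjamini-Hochberg adjustment and a threshold of 0.05. The script was tested on simulated data. Genes named were 11 set by name, the 15 largest increases and decreases (called, mean of at least 50 in a group, no overlap, named genes only), up to 4 per list from 38 lists, and the 10 lowest p for the difference of effects; other list members named beside them and the gene families were chosen after their values were seen. A few genes that the rule takes are not reported here. The comparison and the lists were chosen with earlier results of these data known. Alternatives were other pseudocounts, filters, bridges, scalings, fits and libraries left out.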

Additional observations from a re-analysis of the deposited data

Results flagged for a closer look

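The TMZ effect differed between 36S and 36N, by the test of the difference itself (limma, adjusted over all genes), for 12 of the named genes. All of them but Cpn1 and Ogg1 were named because they had the lowest p of this same test. Their number among the named genes is therefore not a result. On the log2 scale the 36S effect minus the 36N effect was 7.48 for Gm10020 (adjusted p = 7.3e-05), -4.55 for Dip2c (7.3e-05), -2.76 for Zxdb (0.0011) and 4.13 for Gm49760 (0.0011). It was -4.58 for Fam3b (0.0032), -1.99 for Ak3, 4.11 for Bhlhb9, -4.02 for Zfp575 and -3.19 for Pard6b (0.0041 for each of the last 4), and 2.41 for Pitpnm2 (0.0071). Cpn1 had -3.45 and Ogg1 -1.63 (0.028 each). In each of these 12 genes the untreated libraries differed between 36S and 36N with an adjusted p under 0.05, and the treated ones were not called. Over all genes 3.89% differed untreated and 0% with TMZ, so the lack of a treated call held for every gene. Because the 12 were taken by the difference of effects, this pattern is not a separate result. Each treated 36S library was also most like a treated 36N library, and Ddx3y was listed at 0 in both 36S TMZ 2 and 36N TMZ 5. Whether a treated library carries the wrong genotype label was not tested. Gm10020 was listed at 0 in all 3 untreated 36S libraries, stood at 157, 158 and 96.3 in 36N untreated, and at 71.7, 110 and 196 in 36S TMZ. Pitpnm2, a lipid transfer protein gene, stood at 49.0, 32.0 and 32.6 in 36S untreated, at 226, 194 and 169 in 36N untreated, and between 514.8 and 725 in all treated libraries.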

How the results depend on the processing

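For 36S, 6907 to 8385 genes were called when each library was left out in turn, 7919 with the replicate block, 7323 with 1 ratio per table and 9189 with library weights. For 36N the range without 1 library was 7958 to 8648. The 40 genes of the difference of effects became 116 with library weights, 19 with the replicate block and 11 to 32 with 1 library left out (11 without 36S untreated 2, 14 without 36N TMZ 5, 16 without 36N untreated 4, 18 without 36S TMZ 2). With 1 ratio per table they numbered 1933. That setting changed the scale of the 36S values only, so the gene-specific part of the ratio entered the difference, and the 1933 are not read as a result. The block used the title numbers, which were not taken to pair libraries: the deviations of same-numbered 36S libraries correlated at -0.0542, 0.0138 and -0.0119. Of 4940 values of 181 named genes under alternatives, 4861 kept direction and call, 65 lost the call, 3 gained it and 11 changed sign. The 11 were all with 1 ratio per table, as log2 fold changes: Mre11a -0.353, Xrcc6 -0.108, Atm -0.475, Mcm2 -0.577, Tyms -0.195, Gins2 -1.03, Mad2l1 -0.537, Fbl -0.0925, Hsp90aa1 -0.315, Hspa8 -0.698 and mt-Atp8 -1.22. In the shared 36N libraries the ratio of a gene was nearly constant after a library factor. Its median spread on the log2 scale was 2.35e-06 untreated and 3.32e-05 with TMZ. The gene-wise bridge thus closely reproduces these 36N libraries, while 1 ratio per table leaves out the part that differs between genes. Which bridge is nearer the true ratio in the 36S libraries was not tested. Quantile normalization left 8266 calls in 36S, with a median log2 fold change of -0.0819. The alternatives that left out genes whose ratio varies, 2 libraries, or gene families, or that asked for 10 in 3 of the 36S libraries, were chosen after seeing the data. Depth is unknown, so counting error was not separated from the spread between libraries.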
